A study of Mus musculus with 27 samples.

Results

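Polyadenylated RNA of the chromatin fraction was compared between mouse cortical neurons and mouse embryonic stem cells. The comparison takes the 3 chromatin libraries of the neurons (mCtx) and the 3 of the stem cells (mESC), 6 of the 27 libraries of the series, chosen by cell type and fraction alone. The series separated mESC, neural progenitor cells (mNPC) and mCtx into chromatin, nucleoplasm and cytoplasm, with 3 biological replicates of each. The mESC were the E14 line, grown on gelatin with LIF. The mCtx were a primary culture of cortical neurons harvested after 5 days in culture, labelled mCtx_E15D5. No genetic change or drug treatment is given for either group. The E14 replicates are cultures of 1 line, and the primary culture can hold other cortical cell types beside neurons. Both groups share the selection of RNA longer than 200 nt and of polyadenylated RNA.

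RNA is made on chromatin, and a messenger RNA normally leaves it after its introns have been removed and its end has been cleaved and polyadenylated. Polyadenylated RNA in a chromatin fraction therefore holds newly finished transcripts that have not been released, together with RNAs that act on chromatin, such as Xist on the inactive X chromosome. Embryonic stem cells divide fast under a network of transcription factors around Pou5f1, Nanog and Sox2, whereas neurons have left the cell cycle and use their own receptors, channels, adhesion molecules and splicing regulators.

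The 6 libraries held 14803334 to 19331242 counted reads, within the range of all 27 (10622897 to 24537526). Levels below are CPM (a gene's reads over the scaled library size), and the fold change is mCtx over mESC on the log2 scale, ± SE, with a p-value of edgeR's quasi-likelihood test adjusted over all genes tested. A gene was called when its adjusted p was under 0.05 and its change was at least 2-fold. Since the counted region of a gene runs from its start to its end, introns lie inside it, and levels of different genes are not compared. The mESC chromatin libraries differed more among themselves than the mCtx ones. Their log2 differences had an SD across genes of 0.575 between replicates 1 and 2, 0.766 between 1 and 3 and 0.503 between 2 and 3. Between mCtx libraries it was 0.34 to 0.344. Leaving out mESC replicate 1 gave 11327 called genes in place of 11217, and leaving out mESC replicate 3 gave 11309.

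Of 18226 genes tested, 11217 (61.5%) were called. They divided into 5332 higher (29.3%) and 5885 lower (32.3%) in neuronal chromatin. At 8-fold or more, 2227 genes (12.2%) were higher and 2607 (14.3%) lower. All 3 mCtx libraries lay on one side of all 3 mESC libraries in 14913 genes (81.8%). The median change over all genes was -0.08, and -0.32 when libraries were scaled by their totals alone. Every share of a gene group below is to be read against these percentages, since a call is common in this comparison. In bulk samples, fewer cells of a type and less RNA per cell cannot be told apart.

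**Figure D1:**
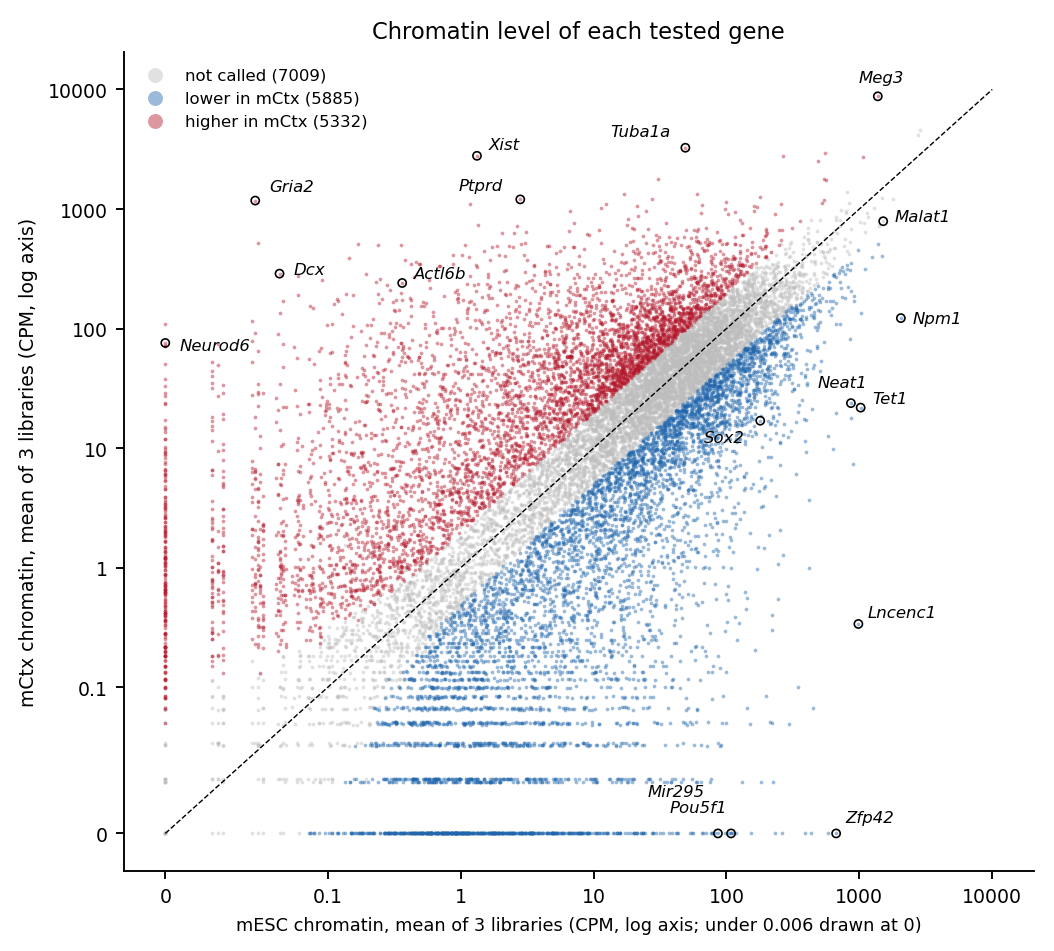
Mean level of each gene in mESC chromatin (horizontal) and mCtx chromatin (vertical), in CPM on log axes, for the 18226 genes tested. Red points are the 5332 genes called higher in mCtx and blue points the 5885 called lower, grey points were not called, and the dashed line marks equal levels.

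Genes of cortical projection neurons were among those with the largest rises. Neurod6, a transcription factor of cortical excitatory neurons, had no read in the 3 mESC libraries and 76, 76.5 and 75 CPM in the mCtx libraries, at least 1704-fold higher. Fezf2, which specifies deep-layer projection neurons, went from 0 in all 3 mESC libraries to 70.5, 71 and 73.7 CPM, at least 1612-fold higher. Gria2, the AMPA receptor subunit that makes the channel impermeable to calcium, had 2 reads in mESC and 1201, 1112 and 1217 CPM in mCtx, a ratio of 39690-fold (95% counting interval 10990 to 327700). These 3 genes were thus at or next to 0 in stem cell chromatin and uniform among the neuronal libraries. Arpp21, a neuronal RNA-binding phosphoprotein whose region overlaps Mir128-2, rose from 0.0487, 0.0408 and 0 CPM to 524, 513 and 534 CPM. Sla, an adaptor protein, Scg2, a granin of dense-core vesicles, and Lrrn3, a leucine-rich repeat membrane protein, also had no mESC read and were at least 2456-fold, 1601-fold and 1127-fold higher. Dcx, the microtubule protein of migrating neurons, had 3 mESC reads and 301, 283 and 281 CPM in mCtx, with a ratio of 6474-fold (95% counting interval 2215 to 31390).

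The largest rises in CPM were of another kind. Meg3, a long noncoding RNA of the imprinted Dlk1-Dio3 region, rose from 928, 1478 and 1724 CPM in mESC to 8881, 8737 and 8678 CPM in mCtx (log2 change 2.67 ± 0.31, adjusted p = 1.73e-08). All 3 mCtx libraries lay above all 3 mESC libraries, which the rule that named this gene required. Tuba1a, a tubulin of growing neurons, rose from 49.1 ± 18.3 to 3255 ± 114 CPM (SD, n = 3), a change of 6.05 ± 0.36. Tubb2b, its beta partner, went from 30.7 ± 6 to 1781 ± 98.1 CPM. Sptan1, the alpha spectrin of the membrane skeleton, and Ptprs, a receptor phosphatase of axons, changed by 2.37 ± 0.20 and 3.36 ± 0.18. Pfkp, the platelet-type phosphofructokinase of glycolysis, rose from 1018, 973 and 1213 CPM to 2840, 2607 and 2687 CPM (1.34 ± 0.16).

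Among the largest falls, 3 genes lie close together on chromosome 8 of mm10. Zfp42, the pluripotency marker Rex1, at chr8:43295068-43307009, - strand, had 753, 633 and 621 CPM in mESC and no read in mCtx, at least 13290-fold lower. Triml1, at chr8:43129807-43141486, - strand, had 657, 468 and 632 CPM in mESC and no read in mCtx. Triml2, at chr8:43183119-43193881, + strand, likewise went from 457, 345 and 503 CPM to 0. Cdh1, the epithelial cadherin that joins stem cells in colonies, fell from 185, 239 and 276 CPM to 0, at least 4693-fold lower. By CPM the largest falls included Npm1, the nucleolar chaperone, from 2348, 2032 and 1780 CPM to 126, 120.4 and 121 CPM (-4.07 ± 0.18, adjusted p = 8.2e-17). The other genes with large falls in CPM were Mid1, a ubiquitin ligase on microtubules (-6.92), Pabpc1, the cytoplasmic poly(A)-binding protein (-2.94), Eif4a2, an RNA helicase of translation initiation whose region overlaps Snora81 (-1.87), and Gpi1, an enzyme of glycolysis (-1.42). Without mESC replicate 3 the change of Gpi1 was -0.88, below the 2-fold limit.

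**Figure D2:**
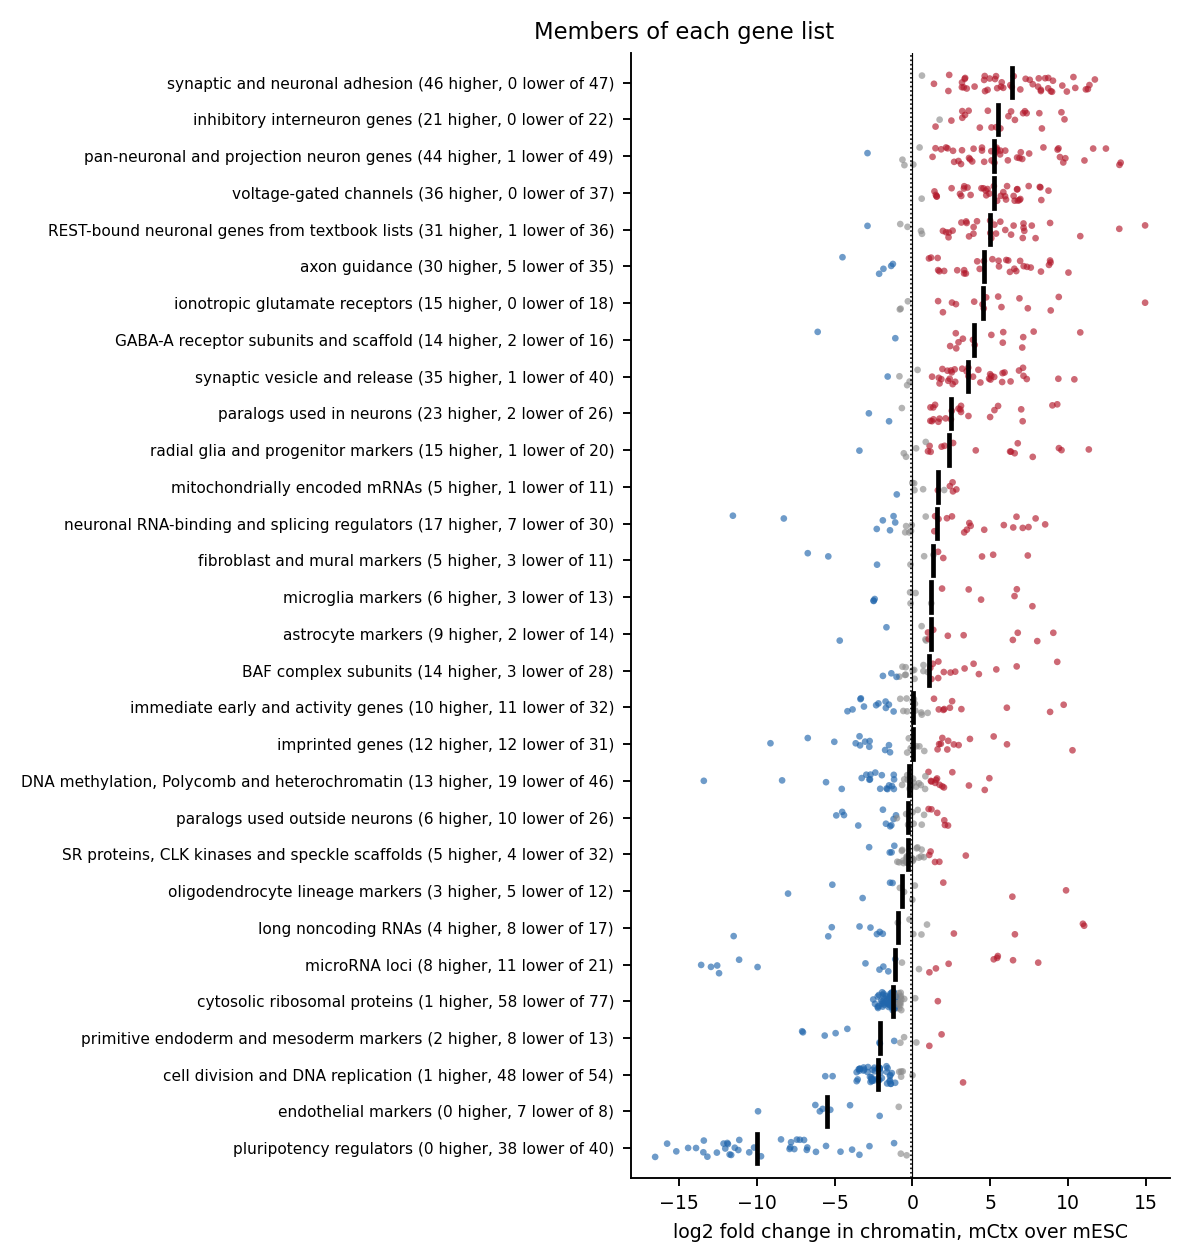
Log2 change in chromatin, mCtx over mESC, of each tested member of the gene lists (points), with the median of each list (black bar) and of all 18226 genes tested (dotted line at -0.08). Pluripotency regulators lie at the low end with a median of -9.96, and synaptic adhesion genes at the high end with a median of 6.40.

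Pluripotency regulators fell as a group: 38 of 40 were called lower and none higher, beside 32.3% and 29.3% of all genes. Their median change was -9.96, or -8.67 when the 14 members without an mCtx read were set at the smallest change their counts allow. Pou5f1, the core factor Oct4, had 85.6, 97.7 and 142 CPM in mESC and no read in mCtx, at least 2171-fold lower. Nanog had 89.8, 79 and 102 CPM in mESC and 0, 0.0511 and 0.048 CPM in mCtx. Esrrb, a nuclear receptor of the network, fell from 329, 197 and 204 CPM to 0.922, 1.18 and 1.15 CPM (-7.80 ± 0.32). For each of these 3 genes all 3 mESC libraries lay above all 3 mCtx libraries, and the groups lay apart in 81.8% of all genes. Of the other members without an mCtx read, Tdgf1, the Nodal coreceptor, was at least 7825-fold lower, Dppa4, a chromatin-associated factor, at least 5275-fold and L1td1, an RNA-binding protein derived from a transposon, at least 3115-fold.

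Several members stayed detected in mCtx. Sox2, which neural progenitors use too and whose region overlaps another annotated transcript, fell from 155, 193 and 191 CPM to 16.6, 18.1 and 16.1 CPM (-3.40 ± 0.13). Klf4 and Klf5, factors of naive pluripotency, fell by 4.62 and 3.87 on the log2 scale. Tet1, the enzyme that oxidises methylated cytosine in stem cells and whose region overlaps a small RNA gene, fell from 851, 1068 and 1150 CPM to 23.3, 20.3 and 21.9 CPM (-5.55 ± 0.24), while its relative Tet2 fell by 1.17. Mycn, at 61.2, 107 and 84.2 CPM in mESC and 64.5, 66.8 and 65 CPM in mCtx, and Lin28b, the let-7 inhibitor, at 83.3 ± 21.8 and 49.9 ± 3.14 CPM, were not called (changes -0.36 and -0.74). In the summed level of the 40 genes, mESC libraries ranged from 5190 to 6010 CPM and mCtx libraries from 296 to 312 CPM.

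Pan-neuronal and projection neuron genes rose: 44 of 49 were called higher and 1 lower, with a median change of 5.28. Mapt, the axonal protein tau, rose from 36.3, 22.1 and 23.8 CPM to 1214, 1194 and 1233 CPM (5.47 ± 0.27, adjusted p = 6.65e-16). Camk2b, a calcium-dependent kinase of synapses, went from 64.3, 72.1 and 43.3 CPM to 1266, 1395 and 1350 CPM (4.48 ± 0.21). Map2, the microtubule protein of dendrites, rose by 5.64 ± 0.25 and Tubb3, the neuronal beta tubulin, by 5.28 ± 0.30. In each all 3 mCtx libraries lay above all 3 mESC libraries, and the groups lay apart in 81.8% of all genes. The regions of Mapt and Map2 overlap small RNA genes, and that of Tubb3 lies inside the long predicted gene Gm20388, so that their reads may be shared. The factors that mark cortical layers also rose, among them Tbr1 (8.43), Bcl11b (3.94) and Cux2 (2.62), and Rorb went from a mean of 0.0461 to 47.3 CPM. The heavy neurofilament gene Nefh went the other way, from a mean of 31.8 to 4.3 CPM (-2.88), while the medium and light chains Nefm and Nefl rose (6.14 and 1.85). Not called were Tle4 (-0.64), Foxp1 (-0.51), Elavl2 (0.07) and Neurod1 (0.47). The summed level of the list was 769 to 891 CPM in mESC and 13500 to 13800 CPM in mCtx.

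Genes of inhibitory interneurons were higher too, in 21 of 22 members tested, with a median of 5.53. Gad1, which makes GABA, rose from 28.3, 21.8 and 21.1 CPM to 66.7, 64.8 and 69 CPM (1.49 ± 0.19). Erbb4, the neuregulin receptor of interneurons, rose from 0.146, 0.489 and 0.268 CPM to 45.4, 40.8 and 46.3 CPM (7.12 ± 0.26). Reln, a secreted guidance protein, changed by 4.34 ± 0.38. The interneuron factors Dlx1, Dlx2 and Lhx6 rose by 7.35, 4.86 and 3.21, and Dlx5 from no read to a mean of 2.02 CPM. Pvalb, the calcium-binding protein of fast-spiking cells, had no mESC read and was not called. The summed level was 30.9 to 38.9 CPM in mESC and 444 to 471 CPM in mCtx.

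Markers of other cells that a cortical culture can hold were present beside the neuronal genes. Of 20 radial glia and progenitor markers, 15 were higher and Sox2 alone was lower (median 2.35). Their summed level was 383 to 465 CPM in mESC and 949 to 998 CPM in mCtx. Lhx2, a patterning factor of the cortical progenitor field, rose from 0.243, 0.367 and 0.268 CPM to 203, 214 and 209 CPM (9.43 ± 0.23), and Sox9 rose by 6.78. Fabp7 rose from a mean of 0.0434 to 134 CPM. Of 14 astrocyte markers tested, 9 were higher, among them the glutamate transporter Slc1a2 (9.07) and the water channel Aqp4 (no mESC read and a mean of 1.84 CPM in mCtx), and 2 were lower, Apoe (-1.67) and Gja1 (-4.67). Their sum was 368 to 470 CPM in mESC and 634 to 667 CPM in mCtx. Slc1a3, the glial glutamate transporter, was at the edge of the call with 1.01 ± 0.19, and at 0.80 without mESC replicate 1. The astrocyte marker Clu was near the edge too (1.05). With DESeq2, RLE size factors or library totals 7 of the 14 astrocyte markers were higher, and in log2(TPM + 0.1) 10. Olig2, a factor of oligodendrocyte precursors and some progenitors, had 2 reads in mESC and 31.7, 38 and 34.4 CPM in mCtx, a ratio of 1170-fold (95% counting interval 324 to 9662), and Olig1 rose by 6.43 ± 0.23. The oligodendrocyte list as a whole had 3 members higher and 5 lower of 12, with sums of 152 to 274 CPM in mESC and 97.0 to 108 CPM in mCtx. The part of progenitors and glia in the neuronal results was not tested.

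Markers of microglia, vessels, fibroblasts and early germ layers were checked as well. Of 13 microglia markers tested, 6 were higher and 3 lower, and the sum was 107 to 123 CPM in mESC and 69.7 to 77.5 CPM in mCtx. Among the higher members were C1qa, C1qb, C1qc and Trem2, with low mCtx means of 0.775, 0.658, 0.735 and 1.48 CPM. Of these, C1qb, C1qc and Trem2 had no read in mESC, and Trem2 was not called in log2(TPM + 1) (0.38). Among the lower members were Tmem119 (-2.49) and Itgam (-2.42), and Itgam was instead higher in log2(TPM + 0.1) (1.56). Endothelial markers fell in 7 of 8 members, from a sum of 128 to 175 CPM to one of 8.63 to 8.96 CPM, and Cdh5, Tie1 and Ly6c1 had no mCtx read. Pecam1, an adhesion molecule of endothelium that stem cells also express, fell from 150.4, 112 and 87.9 CPM to 2.41, 2.09 and 1.92 CPM. Fibroblast and mural markers summed to 19.7 to 54.4 CPM in mESC and 20.9 to 25.7 CPM in mCtx, with 5 of 11 higher and 3 lower. Primitive endoderm and mesoderm markers were higher in 2 of 13 and lower in 8, from 416 to 521 CPM down to 313 to 326 CPM. In that list Sox17 and Mixl1 had no mCtx read, and Lama1, a basement membrane laminin, fell from 232, 141 and 182 CPM to 10.3, 10.2 and 10.1 CPM.

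Ionotropic glutamate receptors are tetramers of AMPA, NMDA, kainate or delta subunits. In neuronal chromatin 15 of the 18 genes were higher and none lower, with a median change of 4.56. Of the AMPA subunits, Gria1 rose from 0.925, 0.897 and 0.268 CPM to 336, 319.6 and 354 CPM (8.90 ± 0.37, adjusted p = 1.46e-17). Gria3 and Gria4 rose by 5.52 ± 0.22 and 4.51 ± 0.34. Each of the 4 AMPA genes had all mCtx libraries above all mESC libraries, while in 81.8% of all genes the groups lay apart in one direction or the other. For Gria2, named by its fold, the naming rule required this separation. Of the NMDA subunits, the obligatory Grin1 was already at 59.1, 41.3 and 67 CPM in mESC and rose to 211, 222 and 222 CPM (1.97 ± 0.24). Grin2b, the subunit of young synapses, rose from 0.195, 0.612 and 0.716 CPM to 59.2, 58.3 and 68.4 CPM, and Grin2a, the subunit that joins later in development, from 0.195, 0.53 and 0.76 CPM to 12, 12.3 and 12.5 CPM. Their changes were 6.89 ± 0.46 and 4.59 ± 0.43. Grin2c and Grin2d were not called (-0.81 and -0.75), and the value of Grin2c went to -0.05 without mESC replicate 1 and passed the call at -1.13 without mESC replicate 3. Of the glycine-binding subunits, Grin3a rose by 5.73 ± 0.27, and by 6.36 without mESC replicate 1, while Grin3b rose from 0.332 ± 0.201 to 1.05 ± 0.15 CPM (1.66 ± 0.54). DESeq2 did not call Grin3b (1.55, adjusted p = 0.11).

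Kainate and delta subunits were called higher with 1 exception. Grik2 rose from 1.22, 1.96 and 0.894 CPM to 242, 214 and 254 CPM (7.43 ± 0.23) and Grik5, an auxiliary high-affinity subunit, from 62.2, 64.8 and 52.5 CPM to 391, 446 and 418 CPM (2.81 ± 0.19). Grik1 and Grik4 rose by 9.42 ± 0.46 and 2.55 ± 0.33, and Grid1 by 3.98 ± 0.26. Without mESC replicate 2 the change of Grik1 was 10.01. Grik3 was the exception, at 241, 102 and 101 CPM in mESC and 121, 116 and 127 CPM in mCtx, a change of -0.29 ± 0.28 that was not called. In the deposited TPM values the same gene was higher in mCtx, with 9.07 ± 7.38 TPM in mESC and 27.5 ± 1.5 TPM in mCtx (SD, n = 3), so that its direction depends on the quantification.

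Of 16 GABA-A receptor subunits and partners, 14 were higher and 2 lower (median 3.96). The subunit genes Gabra2, Gabrb2 and Gabra5 rose by 7.80, 7.13 and 5.82. Nlgn2, the adhesion molecule of inhibitory synapses, rose from 60.1, 76.1 and 86.8 CPM to 498, 561 and 520.5 CPM (2.82 ± 0.16). Gabre was the lower subunit, from a mean of 14.1 to 0.201 CPM. Gphn, the scaffold gephyrin, fell in read counts from 160.5, 208 and 114 CPM to 73.3, 74.7 and 77.8 CPM (-1.09 ± 0.33), and missed the 2-fold limit without mESC replicate 2 (-0.87). In TPM it was instead higher in mCtx, at 64.2 ± 5.2 against 3.94 ± 0.562 TPM, so its direction depends on the quantification too.

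Voltage-gated channels rose in 36 of 37 genes and none fell (median 5.24). Cacna1b, the N-type calcium channel of axon terminals, went from 50.6, 42.7 and 34 CPM to 567, 562 and 582 CPM (3.75 ± 0.20), and Cacna1h, a T-type channel, changed by 4.96 ± 0.34. Cacna1a, the P/Q-type channel, was at 107, 105 and 106 CPM in mESC and rose less, by 1.57 ± 0.15. The sodium channels Scn1a, Scn2a, Scn3a and Scn8a rose by 6.09, 6.51, 5.96 and 3.55.

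Synaptic and neuronal adhesion genes were higher in 46 of 47 cases, with the highest median of the lists (6.40). Ptprd, a receptor phosphatase that organises synapses and is encoded over more than 2 megabases, rose from 2.87, 2.16 and 3.4 CPM to 1173, 1137 and 1302 CPM (8.74 ± 0.23, adjusted p = 2.36e-21). L1cam, an adhesion molecule of growing axons whose region overlaps Arhgap4, changed by 5.38 ± 0.33. Other synaptic adhesion genes rose as well, among them Nlgn1 (9.64), Lrrtm3 (9.04) and Lrrtm4 (10.48). Lrrtm2 and Slitrk1 had no mESC read and means of 9.25 and 24.1 CPM in mCtx. Ptprf, the relative of Ptprd and Ptprs, was not called (0.62).

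Genes of synaptic vesicles, release and the postsynaptic scaffold were higher in 35 of 40 cases and lower in 1, with a smaller median of 3.55. Unc13a, which primes vesicles, rose from 45.8, 57.9 and 78.9 CPM to 662, 686 and 709.6 CPM (3.49 ± 0.17). The scaffold genes Dlg2 and Dlgap1 rose by 10.42 ± 0.29 and 6.32 ± 0.17. Sv2c was lower in read counts (-1.58) but not called in log2(TPM + 1) (0.30), while its relatives Sv2a (4.25) and Sv2b (from a mean of 0.0434 to 34.6 CPM) were higher. Vamp1, Homer1, Rims2 and Nsf were not called, with changes of -0.83, -0.33, -0.17 and 0.34.

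Axon guidance genes split, with 30 of 35 higher and 5 lower (median 4.60). Plxna2 and Plxna1, receptors for semaphorins, rose from 9.28 ± 3.78 to 611 ± 39.8 CPM and from 114 ± 19.8 to 379.9 ± 4.63 CPM (changes 6.04 ± 0.30 and 1.74 ± 0.16). Epha5, an ephrin receptor of cortical axons, rose from 0.341, 0.122 and 0.224 CPM to 247, 230 and 252 CPM, and Ephb2 by 3.33 ± 0.23. The netrin receptor Dcc rose by 8.27, whereas netrin itself, Ntn1, fell from a mean of 106 to 4.73 CPM (-4.49). The other 4 lower genes were Unc5b (-2.13), Sema3e (-1.86), Slit3 (-1.36) and Nrp2 (-1.25), of which Slit3 (0.02) and Nrp2 (-0.76) were not called in log2(TPM + 1). For the families of those 4, Unc5c, Sema3a, Slit1 and Nrp1 rose by 7.16, 6.93, 6.56 and 6.28.

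REST is a repressor that binds a long element near neuronal genes and holds them silent outside neurons. Rest itself, looked at after its values were seen, was lower in mCtx, at 28.2 against 219.8 CPM (-2.96, adjusted p = 4.76e-15). Of 36 neuronal genes known as REST targets, 31 were higher and 1, Nefh, lower, with a median of 5.01. Letters of the element were searched on both strands of RefSeq promoter windows of GRCm38.p6, from 250 bases before to 50 bases after the start, as its left part TTCAGCACC and its right part, which stands in capitals near the end of the Unc13a stretch below. Of 25 targets with a window, 4 (16%) held either part, beside 100 of 12736 genes tested (0.785%). Either part was in 22 of 1462 genes at least 8-fold higher (1.50%) and 10 of 1621 at least 8-fold lower (0.617%). Of all 27025 genes with a window 0.581% held either part, and counted by window 0.493% of all 32851. The following 30-base stretches are shown because they are the 4 windows of listed targets that hold a part of the element, in capitals. Each is written 5′ to 3′ on its given strand.
Unc13a, chr8:71671726-71671755, + strand: cTTCAGCACCgggggcgcGGACAGCGCCtg
Scg2, chr1:79440024-79440053, + strand: tTTCAGCACCggacagctcctcggcttata
Syn1, chrX:20921122-20921151, - strand: aTTCAGCACCgcggtcagagccttcgcctc
Celsr3, chr9:108825917-108825946, + strand: gTTCAGCACCgtgggcagcacttctgttct
The window of Unc13a alone held the exact letters of both parts, and the search set no condition on their spacing. In chromatin Unc13a rose by 3.49 as above, Scg2 from 0 to 71.3 ± 4.56 CPM, Syn1, a vesicle phosphoprotein, by 3.65 and Celsr3, a cadherin of axon tracts, by 3.46. The absence of these letters from another window says only that they are not in it.

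The octamer that Pou5f1 and its relatives recognise was searched in the same way, as ATTTGCAT. It was present in 48 of the 8-fold lower genes with a window (2.96%), in 25 of the 8-fold higher ones (1.71%) and in 1.66% of genes tested. Of all 27025 genes with a window 1.97% held it, and counted by window 1.74%. The 1 shown here lies before Zfp42, the gene with the largest fall, and has the octamer in capitals.
Zfp42, chr8:43307167-43307196, - strand: cATTTGCATaactgagcaagagtctttgcc

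MicroRNA loci were counted through the longer transcripts that cover them, since RNA under 200 nt was removed, so the mature microRNAs were not measured. Enough reads for a test were found at 21 of 46 loci, of which 8 were higher and 11 lower in mCtx. The Mir290 cluster, between positions 3218639 and 3220837 of chromosome 7, makes the most abundant microRNAs of mouse embryonic stem cells. Shown are the sequences of the 3p arms of the 6 loci tested, with the seed (bases 2 to 8), which pairs with targets, in capitals.
miR-291a-3p: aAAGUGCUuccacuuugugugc
miR-294-3p: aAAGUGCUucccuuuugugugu
miR-295-3p: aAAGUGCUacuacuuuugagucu
miR-290a-3p: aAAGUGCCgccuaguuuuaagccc
miR-291b-3p: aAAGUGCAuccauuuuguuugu
miR-293-3p: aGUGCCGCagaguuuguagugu
The first 3 share the seed AAGUGCU. All 6 loci had no read in any mCtx chromatin library. Mir295 had 105, 91.3 and 62.5 CPM in mESC and Mir294 65.3, 51.9 and 50.1 CPM, at least 1717-fold and 1107-fold higher there. Mir293, Mir291b, Mir291a and Mir290a had mESC means of 42.3 ± 5.89, 38.9 ± 7.18, 15.9 ± 2.52 and 6.97 ± 1.95 CPM. In the TPM table the 5 loci Mir291a, Mir291b, Mir293, Mir294 and Mir295 were 0 in every library compared, so these falls rest on the read counts, and over the whole list TPM called 1 locus higher and 1 lower.

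The Mir17 to Mir92 cluster and its relative in Mcm7 drive proliferation in many cells, and 3 of the loci tested make a mature sequence with the seed AAAGUGC, shown here.
miR-20a-5p: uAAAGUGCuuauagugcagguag
miR-93-5p: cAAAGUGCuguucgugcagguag
miR-106b-5p: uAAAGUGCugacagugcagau
Mir92-1 fell from 9.25, 10.7 and 8.5 CPM to 1.43, 0.971 and 1.1 CPM (-3.01 ± 0.30), and Mir19b-1 by 2.11 on the log2 scale. Mir20a was lower too, with -1.55 ± 0.49, but lost its call without mCtx replicate 3 (-1.13) or mESC replicate 2 (-0.99), and these 3 loci lie inside Mir17hg. Inside Mcm7, a replication helicase gene that itself fell by 1.66, Mir25 changed by -1.86 ± 0.24 and Mir93 by -1.10 ± 0.31, while Mir106b was not called (-0.67). Mir93 was at -0.99, below the limit, without mESC replicate 2.

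Of the loci of neuronal microRNAs tested, those of miR-9, miR-124 and miR-138 rose from counts at or near 0. Mir7-1, inside Hnrnpk, was not called, at 4.04, 3.38 and 3.35 CPM in mESC and 4.51, 4.7 and 5.28 CPM in mCtx (0.43 ± 0.32). The sequences of miR-9-5p and miR-138-5p are shown for the loci that rose.
miR-9-5p: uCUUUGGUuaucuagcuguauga
miR-138-5p: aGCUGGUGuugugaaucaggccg
Mir9-2, inside the host transcript C130071C03Rik, had no mESC read and 1.84, 1.89 and 2.02 CPM in mCtx, at least 43.1-fold higher. Mir9-3, which gives the same mature sequence, changed by 1.52 ± 0.65 from 0.0868 ± 0.0369 to 0.266 ± 0.154 CPM, and this call was lost when mESC replicate 1 (1.27), mESC replicate 3 (1.53), mCtx replicate 2 (1.10) or mCtx replicate 3 (1.47) was left out. Mir124a-1 had 3 reads in mESC, all in replicate 1, and 2.15, 2.71 and 1.97 CPM in mCtx, a ratio of 51-fold (95% counting interval 17.4 to 247). Mir124a-2 and Mir138-2 rose to 0.622 ± 0.263 and 0.82 ± 0.134 CPM. Mir124a-2 had no mESC read and Mir138-2 had 1, also in replicate 1. In the imprinted region of Meg3, Mir770 rose from 1.36, 2.41 and 2.06 CPM to 95.5, 82.8 and 87.3 CPM, Mir433 by 1.10 ± 0.32 and Mir541 by 2.33 ± 0.59. DESeq2 called neither Mir541 (adjusted p = 0.27) nor Mir9-3 (adjusted p = 0.13), and Mir433 fell under the 2-fold limit with library totals (0.86). Mir770 lies inside Meg3, so its reads may belong to the rise of that RNA.

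Of 17 long noncoding RNAs with a role known by name, 4 were higher and 8 lower, with a median of -0.93. Xist, which coats and silences the inactive X chromosome, rose from 2.34, 1.02 and 0.626 CPM to 766, 1971 and 5623 CPM (11.05 ± 0.91, adjusted p = 1.78e-10). The mCtx libraries differed widely among themselves, replicate 3 being the highest and replicate 1 the lowest, and the change was 11.70 without mESC replicate 1 and 10.04 without mCtx replicate 3. The sex of the cells was not taken into account, and its part in the level of Xist was not tested. Tsix, the antisense partner of Xist, fell by 5.41 on the log2 scale, from a mean of 46.1 to 1.08 CPM. The region of Tsix covers that of Xist on the other strand, and the mCtx reads were counted to Xist and not to both. Lncenc1, a stem cell RNA, fell from 1042, 918 and 989.8 CPM to 0.358, 0.562 and 0.0961 CPM (-11.49 ± 0.29). Neat1, the scaffold of paraspeckles, fell from a mean of 864 to 23.8 CPM (-5.18), whereas Malat1, which gathers in nuclear speckles, was at 1828, 1232 and 1476 CPM in mESC and 819, 734 and 820.2 CPM in mCtx and was not called (-0.93 ± 0.20). Malat1 passed the 2-fold limit, at -1.06, without mESC replicate 2, and at -1.04 with the RLE size factors. Pantr1, a neighbour of the neuronal factor Pou3f3, and Dlx6os1, of the Dlx5 and Dlx6 locus, rose from means of 0.0136 and 0.0298 CPM to 43.9 and 3.55 CPM. Across all 1119 genes of lncRNA biotypes, 400 (35.7%) were higher and 412 (36.8%) lower, with a median of 0.00.

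Of 31 imprinted genes, expressed from 1 parental allele, 12 were higher (38.7%) and 12 lower (38.7%), beside 29.3% and 32.3% of all genes. Their median was 0.02. Nnat, a small membrane protein of developing brain, rose from 3.56, 11.7 and 11.8 CPM to 563, 675 and 609.9 CPM (6.09 ± 0.42) and Gnas, a G protein subunit, from 85.8, 85.5 and 98.6 CPM to 417, 471 and 448 CPM (2.31 ± 0.13). Ndn rose by 5.23, and Kcnk9 from no read to a mean of 8.87 CPM. Lower were Zdbf2 (-2.77 ± 0.29), the growth factor gene Igf2 (-6.72), H19 (-3.40), Peg10 (-5.02) and Phlda2 (from a mean of 13.2 to 0.017 CPM). At the Dlk1-Dio3 region the paternally expressed Dlk1 fell (-3.64), opposite to the rise of Meg3. The median of this list changed sign between settings, so no direction is given for it.

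BAF complexes slide nucleosomes, and neurons are known to exchange several of their subunits for paralogs on leaving the cell cycle. In chromatin 14 of 28 subunit genes were higher and 3 lower (median 1.07). Actl6a, the progenitor subunit BAF53a, fell from 84.6, 109 and 118 CPM to 41.6, 37.9 and 42.8 CPM (-1.35 ± 0.19, adjusted p = 3.16e-07), and its neuronal counterpart Actl6b rose from 0.243, 0.489 and 0.358 CPM to 229.7, 254 and 239 CPM (9.32 ± 0.28, adjusted p = 2.22e-20). The pair thus moved in opposite directions with no overlap between the groups, which 81.8% of all genes also lacked. Ss18 fell from 99.7, 142 and 156 CPM to 38.7, 32.4 and 36.1 CPM (-1.89 ± 0.16), and its counterpart Ss18l1 rose from 25.1, 26.1 and 33.4 CPM to 93.1, 91.8 and 85.5 CPM (1.68 ± 0.15). Of the ATPases, Smarca2 rose from 2.24, 1.67 and 2.06 CPM to 208, 203 and 215 CPM (6.71 ± 0.17), and Smarca4, the stem cell ATPase, also rose, from 139, 197 and 259 CPM to 470, 503 and 513 CPM (1.32 ± 0.25).

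**Figure D3:**
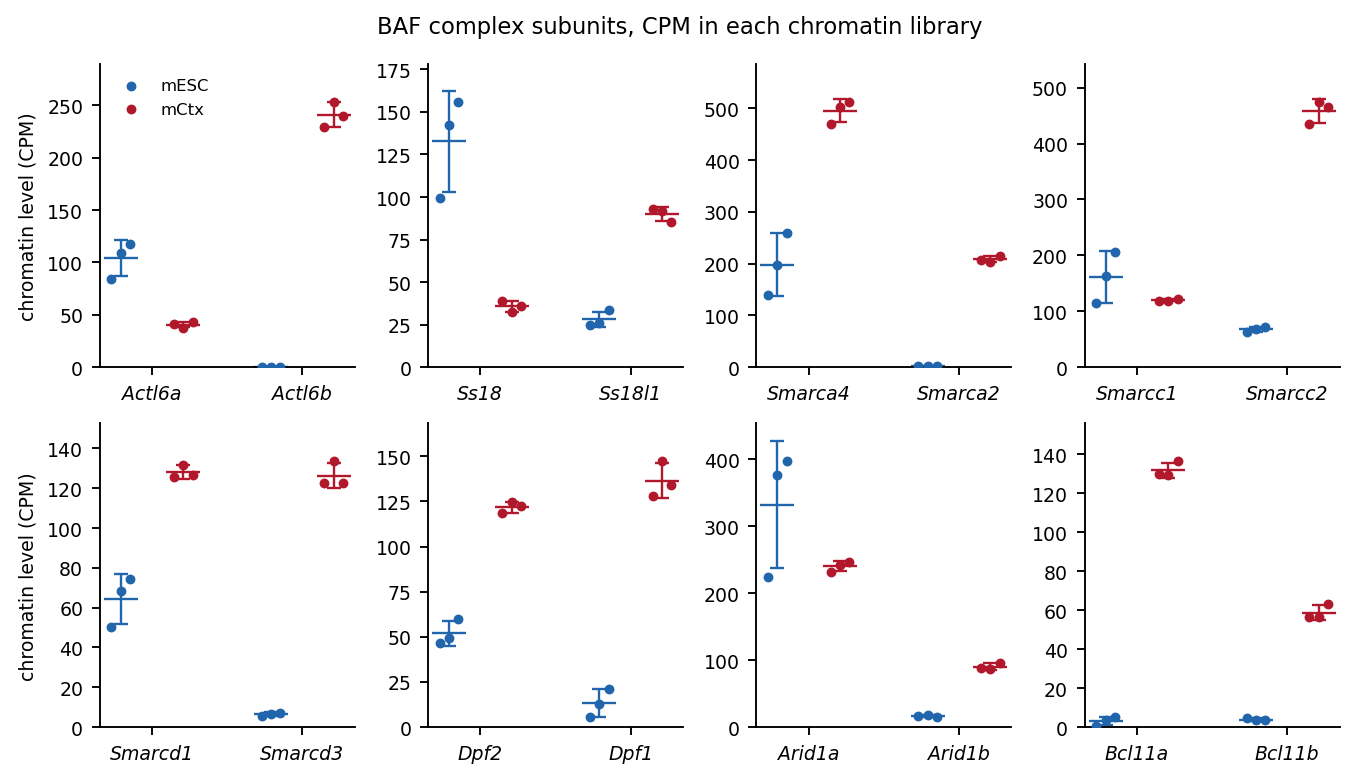
Levels of 8 pairs of BAF subunit genes in the chromatin libraries, in CPM: points are libraries, the line and bars are the mean ± SD of 3. Actl6a and Ss18 fall from mESC to mCtx while Actl6b and Ss18l1 rise, and both ATPase genes, Smarca4 and Smarca2, rise.

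The remaining pairs showed a rise of the neuronal member beside a partner that was not called or also rose. Smarcc2 rose by 2.76 ± 0.14 while Smarcc1 went from 161 ± 46.3 to 119.9 ± 2.15 CPM and was not called. Smarcd3 rose by 4.28 ± 0.15, beside 0.99 for Smarcd1, which was just under the limit, and -0.64 for Smarcd2. Dpf1 rose from 5.65, 12.9 and 21.1 CPM to 128, 147 and 134 CPM (3.36 ± 0.32), Dpf3 by 1.67 ± 0.24, and the ubiquitous Dpf2 by 1.23 ± 0.12, while Phf10 was not called (-0.83). Arid1b rose by 2.46 ± 0.14 and Arid1a was not called (-0.47). Bcl11a and Bcl11b, which join neural BAF, rose by 5.40 ± 0.48 and 3.94 ± 0.23, and Brd9, of the non-canonical complex, by 2.02 ± 0.14. The core genes Smarcb1, Smarce1 and Arid2 had changes of 0.14, 0.02 and 0.12 and were not called. Pbrm1, of the PBAF form, was called lower at -1.02 ± 0.16, and was at -0.97 without mESC replicate 1.

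In 26 other and overlapping pairs of paralogs, the neuronal members were higher in 23 cases and lower in 2, and the members used outside neurons were higher in 6 and lower in 10. Eef1a2, the elongation factor of neurons and muscle, rose by 9.01, while Eef1a1 was at 1491 ± 158 and 1233 ± 42.5 CPM (-0.27, not called). Hk1, the hexokinase of brain, rose by 3.13 and Hk2 fell by 4.89 on the log2 scale. The glucose transporters both fell, the neuronal Slc2a3 (-2.79) and the widespread Slc2a1 (-4.51). Tubb5, a beta tubulin listed as used outside neurons, rose from 218, 249 and 302 CPM to 1015, 1154 and 1117 CPM (2.10 ± 0.16). Klc1, a kinesin light chain, rose by 1.16 ± 0.14, and Eno1, an enolase, fell by 1.05.

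Genes of DNA methylation, Polycomb and heterochromatin were higher in 13 of 46 cases (28.3%) and lower in 19 (41.3%), with a median of -0.24. The shares of all genes were 29.3% and 32.3%. The stem cell cofactor Dnmt3l had no mCtx read, and the methyltransferase Dnmt3b fell from 84.4, 173 and 192 CPM to 22.6, 20.7 and 23.2 CPM (-2.76 ± 0.32), whereas Dnmt3a, the methyltransferase of neurons, rose by 1.52 (0.59 and not called in log2(TPM + 1)) and the oxidase Tet3 by 2.57. Of Polycomb complex 2, Suz12 fell from 519.5, 445 and 582 CPM to 54.5, 54 and 53.2 CPM (-3.26 ± 0.18), Eed by 2.38, Mtf2 by 2.07 and Jarid2 by 2.72 on the log2 scale, while the catalytic subunit Ezh2 was not called (0.09). Of the chromobox readers, Cbx7 was lower (-4.54) and Cbx8 was higher (4.95). Trim28, the corepressor of transposons, fell from 619, 684 and 826 CPM to 288, 326 and 317 CPM (-1.19 ± 0.18).

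Cell division and replication genes fell in 48 of 54 cases (median -2.21). Mybl2, a cell cycle transcription factor, fell from 994, 774 and 822 CPM to 18, 20.3 and 15.2 CPM (-5.60 ± 0.23, adjusted p = 1.63e-17). Top2a, the topoisomerase of dividing cells, fell from 722, 899 and 941 CPM to 82, 83.6 and 79.8 CPM (-3.38 ± 0.18), Pole, a replicative polymerase, by 3.13 and Mki67, a coat protein of mitotic chromosomes, by 1.46. Ccnd2, a cyclin of neural progenitors, was the 1 member called higher (3.26). Plk1, Tyms, Foxm1, Ccna2 and Cdk4 were not called, with changes of -0.84, -0.72, -0.72, -0.62 and 0.01.

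Cytosolic ribosomal protein genes fell in 58 of 77 cases (median -1.27). Rpl4 fell from 782, 734 and 696 CPM to 169, 191 and 189.6 CPM (-2.01 ± 0.14) and Rpl10a by 1.52, while Rpl29 was the only member called higher (1.64). Many of these genes host small nucleolar RNAs or have processed copies, so reads may be shared. Rpl3 lay at the limit with -0.99, and at -1.11 without mESC replicate 1. The number of lower members was 54 without mitochondrial genes and 70 with library totals. In log2(TPM + 1) 59 were lower and 4 higher. Among these higher ones was Rps13 (1.30), which was lower in counts (-1.23), so its direction depends on the quantification. Mitochondrially encoded mRNAs are made inside mitochondria and not on nuclear chromatin. Of 11 tested, 5 were higher and 1 lower (median 1.64), and in log2(TPM + 1) 8 were higher and 0 lower. The lower gene, mt-Nd6, lay at the 2-fold limit, with means of 30.1 CPM in mESC and 15 CPM in mCtx. Its call was lost without mCtx replicate 2 (-0.87), without mESC replicate 3 (-0.64) and with a replicate block (-0.97), and in log2(TPM + 1) it was higher (2.30). The level of mt-Cytb went from 522, 514 and 616 CPM to 2982, 3181 and 2632 CPM. Both groups thus contained mitochondrial RNA, and its part in other results was not tested. For mt-Cytb all 3 mCtx libraries lay above all 3 mESC libraries, and the groups lay apart in 81.8% of all genes. Without mitochondrial genes 11188 genes were called.

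Regulators of splicing in neurons were higher in 17 of 30 cases and lower in 7 (median 1.57). Celf2 rose from 14.1, 10.2 and 9.88 CPM to 1030, 985 and 1053 CPM (6.49 ± 0.24) and Rbfox2 from 109, 124 and 160 CPM to 756, 754 and 791 CPM (2.55 ± 0.16). Rbfox1 and Srrm4, which drives neuronal microexons, rose by 8.54 and 7.10. Ptbp1, the repressor of neuronal exons, fell by 1.21 on the log2 scale, and its neural relative Ptbp2 rose from 132, 139.5 and 97.2 CPM to 342, 325 and 348 CPM (1.46 ± 0.18). The epithelial regulator Esrp1 fell by 8.27, and Esrp2 from a mean of 21 CPM to no read. Celf1 was not called (-0.21). Of 32 SR proteins, CLK kinases and speckle scaffolds, 5 were higher and 4 lower (median -0.26), or 3 and 6 when scaled by library totals. Srrm2, a scaffold of nuclear speckles, was at 1041, 1891 and 2468 CPM in mESC and 1189, 1218 and 1237 CPM in mCtx (-0.57, not called), and Son, the other scaffold, at 668 ± 65.9 and 808 ± 21.9 CPM (0.27, not called). The lower members were Srpk3, Srsf2, Srsf10 and Rbm25, and the higher ones Srsf12, Rbm5, Clk3, Srsf9 and Srpk2.

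Immediate early genes are switched on with activity in neurons and with serum or stress in many cells. Of 32, 10 were higher (31.2%) and 11 lower (34.4%), near the 29.3% and 32.3% of all genes. Their median of 0.07 changed sign between settings. Npas4, Vgf and Fos rose by 8.86, 3.15 and 1.39, and Nr4a3 and Egr3 from means of 0.0583 and 0.0298 CPM to 56.5 and 2.47 CPM. The call of Fos was lost without mCtx replicate 3 (0.99). Atf3, Ier2, Junb and Arc fell by 4.17, 3.84, 3.33 and 2.33. Nr4a1, at 28.2, 40.8 and 66.5 CPM in mESC and 62.3, 66.8 and 77.8 CPM in mCtx, Homer1 and Per1 were not called (0.61, -0.33 and 0.57). Nr4a1 was at 1.00 and called without mESC replicate 3.

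Long genes were more often higher than short ones. Of 5972 genes under 10 kb, 26.5% were higher and 35.9% lower, with a median of -0.23. Of 2108 genes of 100 to 500 kb, 46.8% were higher and 20.9% lower (median 0.85), and of 196 genes over 500 kb, 77.0% were higher and 12.2% lower (median 3.88). With the genes of the neuron and synapse lists left out, 149 genes over 500 kb remained, of which 71.1% were higher (median 3.11), beside 29.3% of all genes. In cytoplasm the median of the longest class was 5.06. Among the longest genes, Dlg2, Nrxn3, Tenm2 and Csmd1, all of synapses or neuronal surfaces, rose from means under 3 CPM to 498, 84.9, 372 and 229 CPM, and Lingo2, a leucine-rich repeat protein, rose by 8.22. Fgfr2, Dmd and Pde4d were not called (-0.38, 0.67 and -0.81), and Fhit was lower (-1.91). These genes were chosen from the longest after their values were seen.

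**Figure D4:**
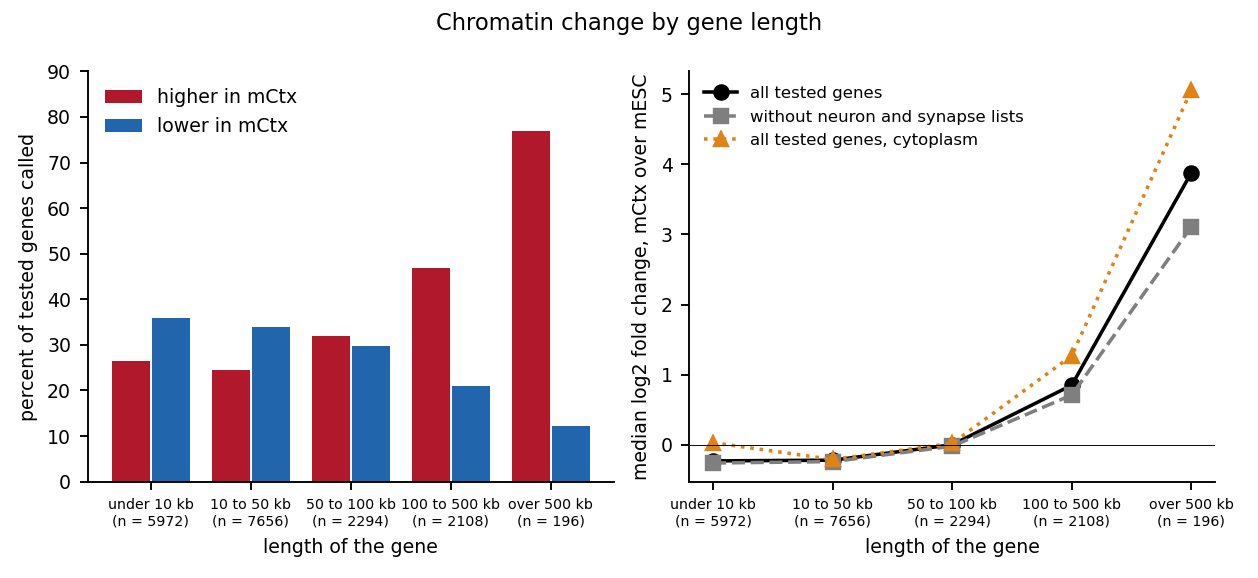
Left, share of genes called higher and lower in mCtx chromatin, in percent, by gene length from start to end. Right, median log2 change by length for all genes tested, for genes outside the neuron and synapse lists, and in cytoplasm. Over 500 kb the median is highest in each, at 3.88 for all genes in chromatin and 5.06 in cytoplasm, while in cytoplasm the class of 10 to 50 kb (-0.21) lies below that under 10 kb (0.03).

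The share of reads by kind of gene moved with these groups. Genes over 100 kb held 11.7% ± 0.979 of mESC chromatin reads and 19.5% ± 0.48 of mCtx reads (SD, n = 3). Ribosomal protein genes held 2.13% ± 0.222 and 0.697% ± 0.0348, mitochondrial genes 0.614% ± 0.102 and 1.44% ± 0.15, and lncRNA genes 1.74% ± 0.13 and 2.24% ± 0.249. In each of the 4 shares the 3 mCtx libraries were on one side of the 3 mESC libraries, and the 2-sided exact permutation test gave p = 0.10 (adjusted 0.10), the smallest that 3 against 3 allows. Meg3 and Xist, with the large rises given above, are among the lncRNA genes. The summed level of all tested lncRNA genes was 13320, 13240 and 13550 CPM in mESC and 18530, 19490 and 23340 CPM in mCtx. Their share without Meg3 and Xist was not computed, so no rise is given for the other lncRNA genes. In TPM the lncRNA share was instead 0.227 percentage points lower in mCtx.

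The change in chromatin was then set against the change in cytoplasm of the same cell types, as a difference of log2 changes tested in the same fit. The difference was called in 7399 genes (40.6%), positive in 2860 (15.7%) and negative in 4539 (24.9%), with a median of -0.30 over all genes, or -0.56 when scaled by library totals. A positive difference means more of a rise, or less of a fall, in chromatin. In cytoplasm alone 12378 genes (67.9%) were called, 6508 (35.7%) higher and 5870 (32.2%) lower. Of the 5332 genes higher in chromatin 4364 (81.8%) were also called higher in cytoplasm, 74 (1.39%) lower and 894 (16.8%) not called. Of the 5885 lower genes 4145 (70.4%) were lower in cytoplasm, 243 (4.13%) higher and 1497 (25.4%) not called.

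The genes with the largest positive differences were mostly lower in cytoplasm but not in chromatin. Mov10, an RNA helicase that restrains retroelements, was at 72.5, 72.2 and 77.6 CPM in mESC chromatin and 88.4, 87.5 and 88.2 CPM in mCtx chromatin, whereas in cytoplasm it fell from 265 ± 33.9 to 4.24 ± 0.384 CPM. The difference was 6.21 ± 0.20 (adjusted p = 6.29e-18). Crabp2, a retinoic acid carrier, rose in chromatin from 2.41 ± 0.749 to 10.4 ± 0.555 CPM and fell in cytoplasm from 10.3 ± 3.03 to 0.903 ± 0.134 CPM (difference 5.59 ± 0.42). Lrp1b, a long receptor gene whose region overlaps Gm13461, rose by 4.20 in chromatin with -1.19 in cytoplasm (difference 5.38 ± 0.29). Pfkp, with its rise in chromatin, fell in cytoplasm from 337 ± 88.4 to 115 ± 24.2 CPM (difference 2.90 ± 0.23, adjusted p = 1.2e-10). Capn6, a calpain relative without protease activity, rose in chromatin by 5.67 beside -0.06 in cytoplasm. Tdh, a threonine dehydrogenase of mouse stem cells, fell in both, by less in chromatin, where its change rested on the few reads of mCtx and was -12.56 without mCtx replicate 1. It had no read in mCtx cytoplasm, and the size of its difference (5.22 ± 1.29) depends on how the fit treats a group at 0.

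Several of the largest negative differences were of genes that rose further in cytoplasm. Rab3c, a GTPase of synaptic vesicles, rose in chromatin from 0.146, 0.204 and 0.313 CPM to 58.9, 59.2 and 61.2 CPM, and in cytoplasm from no read to 244 ± 40.7 CPM (difference -7.05 ± 1.03). Slc35f1, a member of a sugar transporter family whose region overlaps a predicted gene, rose by 4.79 in chromatin and 10.64 in cytoplasm. Lmbrd2, a membrane protein, fell in chromatin from 41.4, 35.7 and 45.7 CPM to 8.76, 6.18 and 7.64 CPM and rose in cytoplasm from 2.42 ± 0.666 to 26.7 ± 6.67 CPM (difference -5.89 ± 0.29). Rnf125, a ubiquitin ligase, had no mCtx chromatin read and fell by 5.18 in cytoplasm. The size of its difference (-6.47) depends on how the fit treats a group at 0. Colgalt2, a collagen galactosyltransferase, had a difference of -5.96 ± 1.25 in counts but 0.50 in log2(TPM + 0.1) and 0.91 in log2(TPM + 1), so its direction depends on the quantification. Dcx had a negative difference too (-4.89 ± 1.82). Rab3c, Colgalt2 and Dcx had no read in mESC cytoplasm, so the sizes of their differences depend on how the fit treats a group at 0.

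**Figure D5:**
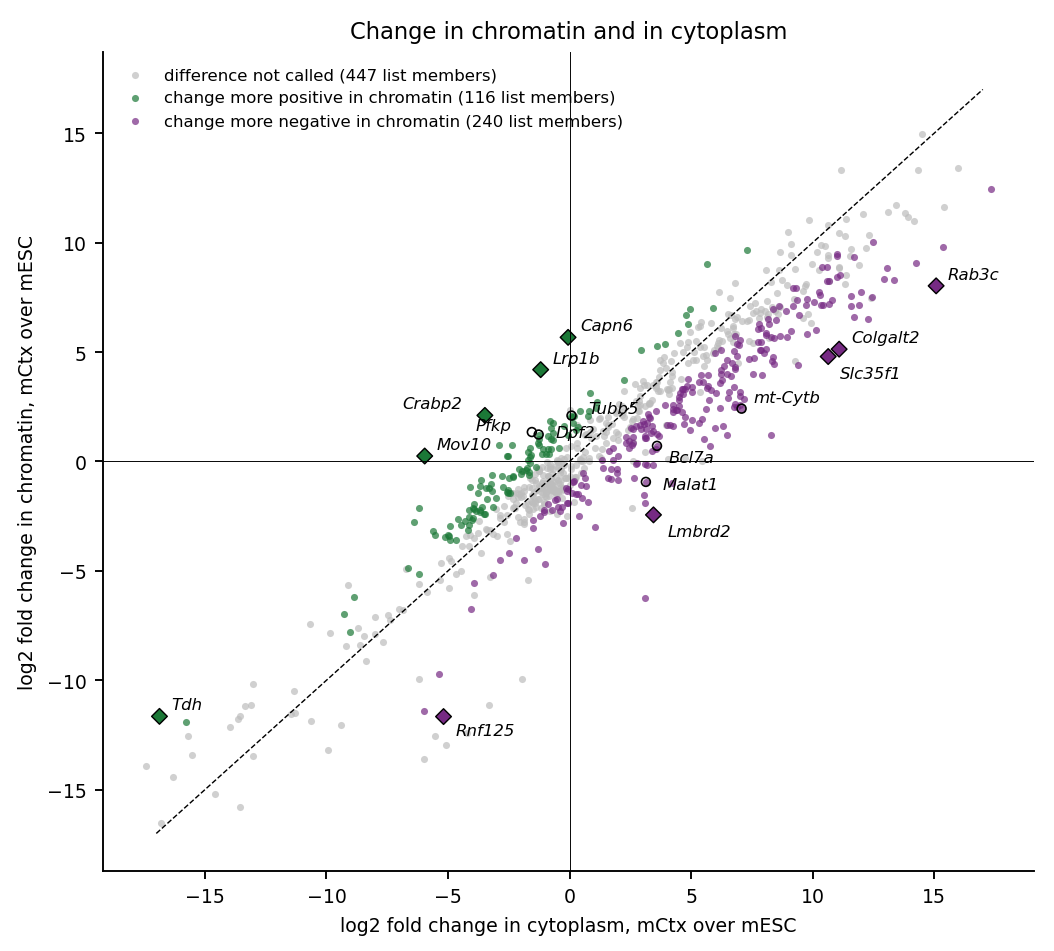
Log2 change of list members in cytoplasm (horizontal) and chromatin (vertical), mCtx over mESC, with the line of equal change. Coloured points are the 116 members whose change was more positive in chromatin and the 240 more negative, 447 were not called for the difference, and diamonds are the 10 genes with the largest differences, such as Mov10 above the line and Rab3c below it.

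Groups of genes differed in how the fractions compared. Cell division genes fell less in chromatin than in cytoplasm, with medians of -2.21 and -3.45, and the difference was positive in 29 of 54 genes and negative in none, beside 15.7% and 24.9% of all genes. Top2a fell by 3.38 in chromatin and 5.02 in cytoplasm. Of 32 SR proteins, CLK kinases and speckle scaffolds, 10 had positive differences and 1 a negative one, among them Son (1.86 ± 0.25) and Srrm2 (1.43 ± 0.33), which were called lower in cytoplasm and not in chromatin. In the BAF list the difference was positive in 8 of 28 genes and negative in 4. Dpf2 rose in chromatin and fell in cytoplasm (-1.27 ± 0.12), and Smarca4 rose in chromatin beside -0.67 in cytoplasm. Of 46 genes of DNA methylation, Polycomb and heterochromatin, 19 had positive differences and 5 negative ones, with Trim28 at 2.25 ± 0.25.

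Neuronal groups had the opposite balance. Pan-neuronal genes had medians of 5.28 in chromatin and 5.26 in cytoplasm but 21 negative differences against 4 positive, such as Mapt (-2.26 ± 0.33) on one side and Tubb3 (1.68 ± 0.35) on the other. The difference was negative in 17 of 37 voltage-gated channels, 22 of 47 adhesion genes, 25 of 35 axon guidance genes and 9 of 16 GABA-A receptor genes, beside 24.9% of all genes, and positive in 0, 2, 0 and 0. Channels had medians of 5.24 in chromatin and 7.57 in cytoplasm. Some neuronal genes had very few mESC reads in cytoplasm, and the size of their difference depends on those reads. Mean levels of Kcnd2, a potassium channel gene, rose from 1.89 to 98.3 CPM in chromatin and from 0.1125 to 34.7 CPM in cytoplasm (difference -2.60). For Syt1 they rose from 1.25 to 231 CPM and from 0.107 to 610 CPM (difference -4.92). The part of low mESC levels in these balances was not tested. Genes of lncRNA biotypes had 20 positive differences against 395 negative, with medians of 0.00 in chromatin and 1.81 in cytoplasm, and Malat1 was at -0.93 in chromatin and rose in cytoplasm (3.14 ± 0.22). The mitochondrial mRNAs had 7 negative differences of 11 and a median difference of -4.61, with medians of 1.64 in chromatin and 5.79 in cytoplasm.

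Fewer differences were called against nucleoplasm. The change in chromatin differed from that in nucleoplasm in 2237 genes (12.3%), positive in 1242 (6.81%) and negative in 995 (5.46%), with a median of 0.06. The positive share of 55.5% depended on the scaling and the filter: it was 43.3% with RLE size factors, 42.4% with DESeq2, 38.9% without a filter, 65.6% in log2(TPM + 0.1) and 66.0% in log2(TPM + 1). It was 41.2% without the nucleoplasm library of mESC replicate 1, so no direction is given for this balance.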

How the data were processed

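Per the labels' protocols, RNA longer than 200 nt was selected for poly(A) with oligo-dT and made into stranded libraries, read as 100 bp pairs. The deposited count table holds whole-number reads per gene of 37332 genes, and the deposited TPM table holds 1 value per gene and library for 53379 genes, per the file headers. Chromatin columns, headed Chr by the authors, hold whole numbers and were used as counts. Tools named in the submitters' processing notes are kallisto 0.43.0, STAR and featureCounts, with build mm10. Counting options, strand setting and annotation release were not given in the sources used here.

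All 27 libraries were fitted with edgeR 4.0.16 (R 4.3.3), with 1 mean for each of 9 groups, filterByExpr, TMM scaling and the quasi-likelihood test, adjusted by the Benjamini-Hochberg method over 18226 genes. The deposited length spans a gene's first to last base in all 37332 genes, so introns lie inside the counted region. Symbols came from GENCODE release 21, and 5347 genes overlap another on the same strand. Alternatives used DESeq2 1.42.0, limma 3.58.1 on log2(TPM + 1) and log2(TPM + 0.1), other scalings and filters, and leaving out each library. Replicates are biological, per the series' design. Within mESC, same-numbered fractions deviated together (correlations of 0.31 to 0.615 between chromatin and cytoplasm and 0.408 to 0.716 between chromatin and nucleoplasm). Where a gene had no read in a group, folds are bounds against 3 reads over the group, and intervals cover counting error only. The fit was also run on simulated data in which only a small set of well-read genes differed. That run does not bear on genes near 0 reads or on the choice of scaling.

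Named genes were the 8 called genes in each direction with the largest fold, the 8 with the largest difference in CPM, the 5 with the largest difference from cytoplasm (predicted genes and pseudogenes passed over), the 4 members of each list with the highest mean, and all members of the pluripotency, glutamate receptor, microRNA and BAF lists. Other members named were chosen after their values were seen. Members and the 30 lists were chosen with earlier results of these data known. Of 872 list members 845 matched the table by symbol. Sequences are from RefSeq (GRCm38.p6). Some genes that the rule selects are not reported here.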

Additional observations from a re-analysis of the deposited data

Results flagged for a closer look

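The change between mESC and mCtx differed between fractions in 7399 genes for chromatin against cytoplasm and in 2237 genes for chromatin against nucleoplasm, each by an edgeR test of the difference itself. Among genes named by rule, the difference from cytoplasm was positive for Mov10 (6.21), Capn6 (5.73), Crabp2 (5.59), Lrp1b (5.38), Tdh (5.22), Pfkp (2.90) and Dpf2 (2.5), on the log2 scale. It was negative for Rab3c (-7.05), Rnf125 (-6.47), Colgalt2 (-5.96), Lmbrd2 (-5.89) and Slc35f1 (-5.85). For Crabp2, Lrp1b, Pfkp and Dpf2 the call was higher in chromatin and lower in cytoplasm, and for Lmbrd2 it was the reverse. Mov10 and Capn6 were each called in 1 of the fractions alone. Tdh and Rnf125 were lower in both fractions, and Rab3c, Slc35f1 and Colgalt2 higher in both.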

How the results depend on the processing

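Over all alternatives of the chromatin comparison, the number of called genes lay between 8627, in log2(TPM + 1), and 12616, without a filter. Leaving out 1 library gave 11203 to 11327 calls, 4937 to 5042 at 8-fold, 7041 to 7634 for the difference from cytoplasm and 1990 to 2459 for that from nucleoplasm. Calls at 8-fold depended on the scale: log2(TPM + 1) gave 1969 (1135 higher and 834 lower, so that 57.6% were higher in place of 46.1%), and log2(TPM + 0.1) gave 1679 lower. The median of genes over 500 kb was 3.62 with library totals, 3.08 with log2(TPM + 0.1) and 1.92 with log2(TPM + 1). As shares of TPM, mCtx minus mESC was -0.227 percentage points for lncRNA genes, 5.04 for mitochondrial genes, -3.92 for ribosomal protein genes and 3.64 for genes over 100 kb. In log2(TPM + 0.1) and log2(TPM + 1) the changes of Grik3 were 1.88 and 1.73, those of Gphn 4.0 and 3.72, and the differences of Colgalt2 0.50 and 0.91, opposite to the counts, and the cause was not tested. Of 241 named results 197 kept their direction and call under every alternative run.

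Replicate numbers did not pair mESC with mCtx: same-numbered chromatin libraries had correlations of 0.0183, -0.000501 and -0.03. Same-numbered mCtx fractions correlated at 0.0845 to 0.137 (chromatin and cytoplasm) and 0.0272 to 0.101 (chromatin and nucleoplasm). The fit with the number as a replicate block called 11252 genes, 4828 at 8-fold, 7525 for the difference from cytoplasm and 2363 for that from nucleoplasm. The replicate block within a cell type gave 7716 and 2660 for these differences and changed the call of 0 of the 10 genes with the largest differences from cytoplasm. Of the list members' changes in chromatin, the block by number moved Smarcd1 (1.00) and mt-Nd6 (-0.97) across the 2-fold limit and newly called Foxc1 (1.41). Over all genes it kept 11182 of the 11217 calls. In log2(TPM + 0.1) and log2(TPM + 1) mt-Nd6 was at 2.30, opposite to the counts, and the cause was not tested. Genes with few reads in a group are limited by depth, and their folds are bounds.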
